A study of Mus musculus with 9 samples.

Results

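The genes described here are 45 genes of the cell division cycle, taken by symbol from a named list, and all 45 were among the 18474 genes of the deposited table of mouse hippocampus. They cover proteins found in dividing cells, cyclins and their kinases, the kinases and structures of mitosis, the MCM helicase, the supply of nucleotides and chromatin factors of S phase, with Cdkn1a as the single inhibitor. Hippocampal tissue of wild type mice was taken from 3 groups of 3 libraries each. Sham mice were sampled 30 days after a control treatment. KA mice were sampled 30 days after an injection of KA, taken to be the seizure-inducing agonist kainic acid. KA+NBP mice had KA and NBP, which the study's title gives as butylphthalide, and were also sampled at 30 days. Strain, sex, age, doses, the route and schedule of NBP and any batch were not given in the sources used here, and nothing says whether a library is a single mouse. P-values therefore measure the spread between these libraries, which may be partly technical.

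A cell that divides first commits to replication, which cyclins and cyclin-dependent kinases drive and Cdkn1a, known as p21, can block. The MCM helicase and the clamp Pcna then copy the DNA, and kinases, kinetochore proteins and spindle motors separate the copies. In adult hippocampus few cells divide, mainly neural progenitors of the dentate gyrus, oligodendrocyte precursors and glia, and glia are known to divide after injury. Many genes of mitosis are repressed in resting cells by the DREAM complex, which binds a CHR element near the start site, often with CCAAT boxes upstream that NF-Y binds, while many genes of replication carry E2F sites and p53 induces Cdkn1a.

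Start-site windows are shown for 6 genes that carry the results below. They come from RefSeq on build GRCm38.p6, whereas the deposited coordinates are on GRCm39, and each runs from 250 bases before the start to 50 after it, in the direction of the gene. Capitals mark every match, on either strand, to CCAAT, to the CHR element TTTGAA or its variant TTCGAA, to the E2F sites TTTCCCGC, TTTGGCGC, TTTCGCGC and TTTGCCGC, and, as the core of a p53 element, to CATG followed after 6 bases by CATG. No capitals overlap another motif. Cdk1, Cenpa and Prc1 are shown as genes of mitosis that were higher in KA, Mcm3 as the helicase gene with the largest difference, Pcna as an abundant gene of the same process that was not called, and Cdkn1a as the inhibitor.
Cdk1: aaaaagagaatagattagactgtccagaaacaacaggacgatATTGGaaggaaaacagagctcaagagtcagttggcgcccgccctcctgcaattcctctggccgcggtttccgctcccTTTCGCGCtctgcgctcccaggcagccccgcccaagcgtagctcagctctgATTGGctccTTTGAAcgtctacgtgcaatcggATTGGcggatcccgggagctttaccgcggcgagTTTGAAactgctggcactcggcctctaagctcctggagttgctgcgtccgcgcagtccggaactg
Cenpa: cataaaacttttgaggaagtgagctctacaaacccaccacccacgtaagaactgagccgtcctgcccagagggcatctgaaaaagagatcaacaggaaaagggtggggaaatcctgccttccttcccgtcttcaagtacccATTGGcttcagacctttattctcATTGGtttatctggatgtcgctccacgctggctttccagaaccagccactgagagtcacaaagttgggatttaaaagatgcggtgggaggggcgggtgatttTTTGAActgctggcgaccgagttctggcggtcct
Prc1: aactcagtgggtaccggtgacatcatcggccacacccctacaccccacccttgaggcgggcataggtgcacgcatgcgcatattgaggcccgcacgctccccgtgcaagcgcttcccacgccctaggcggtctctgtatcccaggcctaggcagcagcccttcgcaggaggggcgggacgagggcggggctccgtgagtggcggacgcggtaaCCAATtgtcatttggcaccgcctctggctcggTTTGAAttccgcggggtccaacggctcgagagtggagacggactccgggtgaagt
Mcm3: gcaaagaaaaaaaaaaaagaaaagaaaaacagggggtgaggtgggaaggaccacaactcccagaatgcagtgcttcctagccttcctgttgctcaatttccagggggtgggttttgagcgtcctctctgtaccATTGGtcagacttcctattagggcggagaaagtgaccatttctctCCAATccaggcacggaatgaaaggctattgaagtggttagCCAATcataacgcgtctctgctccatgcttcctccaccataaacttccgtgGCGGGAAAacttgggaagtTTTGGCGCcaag
Pcna: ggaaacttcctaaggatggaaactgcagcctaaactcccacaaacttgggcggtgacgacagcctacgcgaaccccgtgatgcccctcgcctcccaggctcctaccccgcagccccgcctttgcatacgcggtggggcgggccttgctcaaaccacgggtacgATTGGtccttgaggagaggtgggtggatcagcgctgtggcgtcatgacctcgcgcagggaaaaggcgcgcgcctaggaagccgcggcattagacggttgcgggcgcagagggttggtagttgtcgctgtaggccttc
Cdkn1a: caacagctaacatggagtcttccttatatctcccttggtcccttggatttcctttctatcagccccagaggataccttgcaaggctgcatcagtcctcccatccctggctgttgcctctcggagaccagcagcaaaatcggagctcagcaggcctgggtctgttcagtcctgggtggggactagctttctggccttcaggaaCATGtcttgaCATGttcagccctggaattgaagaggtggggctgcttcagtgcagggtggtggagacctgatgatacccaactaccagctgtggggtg
The Cdk1 window (chr10:69352863-69353162, minus strand) holds 3 CCAAT boxes, 2 CHR elements and an E2F site. In Cenpa (chr5:30666636-30666935, plus strand) 2 CCAAT boxes precede a CHR element, and in Prc1 (chr7:80294201-80294500, plus strand) a CCAAT box precedes a CHR element. Mcm3 (chr1:20820263-20820562, minus strand) has 3 CCAAT boxes and 2 E2F sites and no CHR match, and Pcna (chr2:132253131-132253430, minus strand) has a single CCAAT box. The Cdkn1a window (chr17:29090729-29091028, plus strand) holds the p53 core, and a second RefSeq window of Cdkn1a holds none of the motifs searched.

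RefSeq windows were found for 38 of the 45 genes, 42 windows in all. A CCAAT box stood in 76.2% of them against 37.4% of all 32851 windows in the table, the CHR element in 42.9% against 17.9%, and an E2F site in 21.4% against 2.26%. The CHR variant was present in 9.52% of the 42 windows and 1.56% of all. A CCAAT box together with a CHR element or its variant was found in 45.2% of the windows of these genes and 7.52% of all windows. Among the genes higher in KA it was 10 of 17 windows, and among the others 9 of 25. The p53 core occurred in 0.712% of all windows and, among these genes, in Cdkn1a only. These matches describe letters in a window and no binding was measured.

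The libraries held 15699251 to 16374637 estimated counts, so that 3 counts, the most that a count of 0 allows, correspond to 0.177 to 0.191 counts per 1000000 (CPM) in a library. Several of these genes lie near that bound. In sham the level per transcript length ran from 0.02 FPKM for Ndc80 to 34.2 FPKM for Pcna, and 29 of the 45 genes were under 1 FPKM. Intervals from counts cover counting error only and leave out the spread between libraries. They may not cover even that error in full, because PCR copies are not separate molecules. KA+NBP replicate 2 stood apart from its group, with the markers of choroid plexus and ependyma summing to 657 CPM against 40.6 to 67.7 CPM in the other 8 libraries.

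The first question was what KA injection left in these genes after 30 days. Of the 45 genes, 14 were higher in KA than in sham and 0 were lower, by edgeR's quasi-likelihood test with Benjamini-Hochberg adjusted p under 0.05. Genes of mitosis and of DNA replication were both among them, with log2 differences from 0.56 for Mcm2 to 2.97 for Cdk1. Over all 14752 genes tested, 19.0% were higher and 14.6% lower. Of the 45 genes 31.1% were higher, which is 36.8% of the 38 that were tested. This list and the other lists below were chosen with earlier results of these data known, so their shares are not independent of the data. The median log2 difference was 0.56 over the 38 genes tested and 0.01 over all genes. In bulk tissue a larger number of cells that transcribe a gene and more RNA per cell cannot be told apart.

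Low counts limit this comparison. 7 genes, Ccnb1, Bub1, Aurkb, Ttk, Melk, Ndc80 and Esco2, did not pass the filter, which asked for about 0.618 CPM in 3 libraries. Another 4 passed with no sham library at that level, namely Cdk1, Ccnb2, Cdc20 and Ube2c, and Ube2c passed through the KA libraries alone. Without each library in turn, the count of 14 became 6, 8 and 4 when sham replicate 1, 2 or 3 was left out, and 9, 9 and 6 when KA replicate 1, 2 or 3 was. It was 14, 18 and 14 without KA+NBP replicates 1, 2 and 3. Prc1, Cenpa and Mcm3 passed in all 14 alternatives. Without regard to calls, KA lay wholly above sham in 20 of the 38 genes and wholly below in 1, Mcm6, where this held for 29.3% and 26.9% of all genes. At an unadjusted p under 0.05 the test named 17 of the 38 genes, the other 3 being Ccnb2, Kif11 and Ezh2. This is 44.7% against 45.4% of all genes, but the 17 were all higher in KA, whereas the share of all genes counts both directions. DESeq2 called 14 higher and 0 lower.

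**Figure D1:**
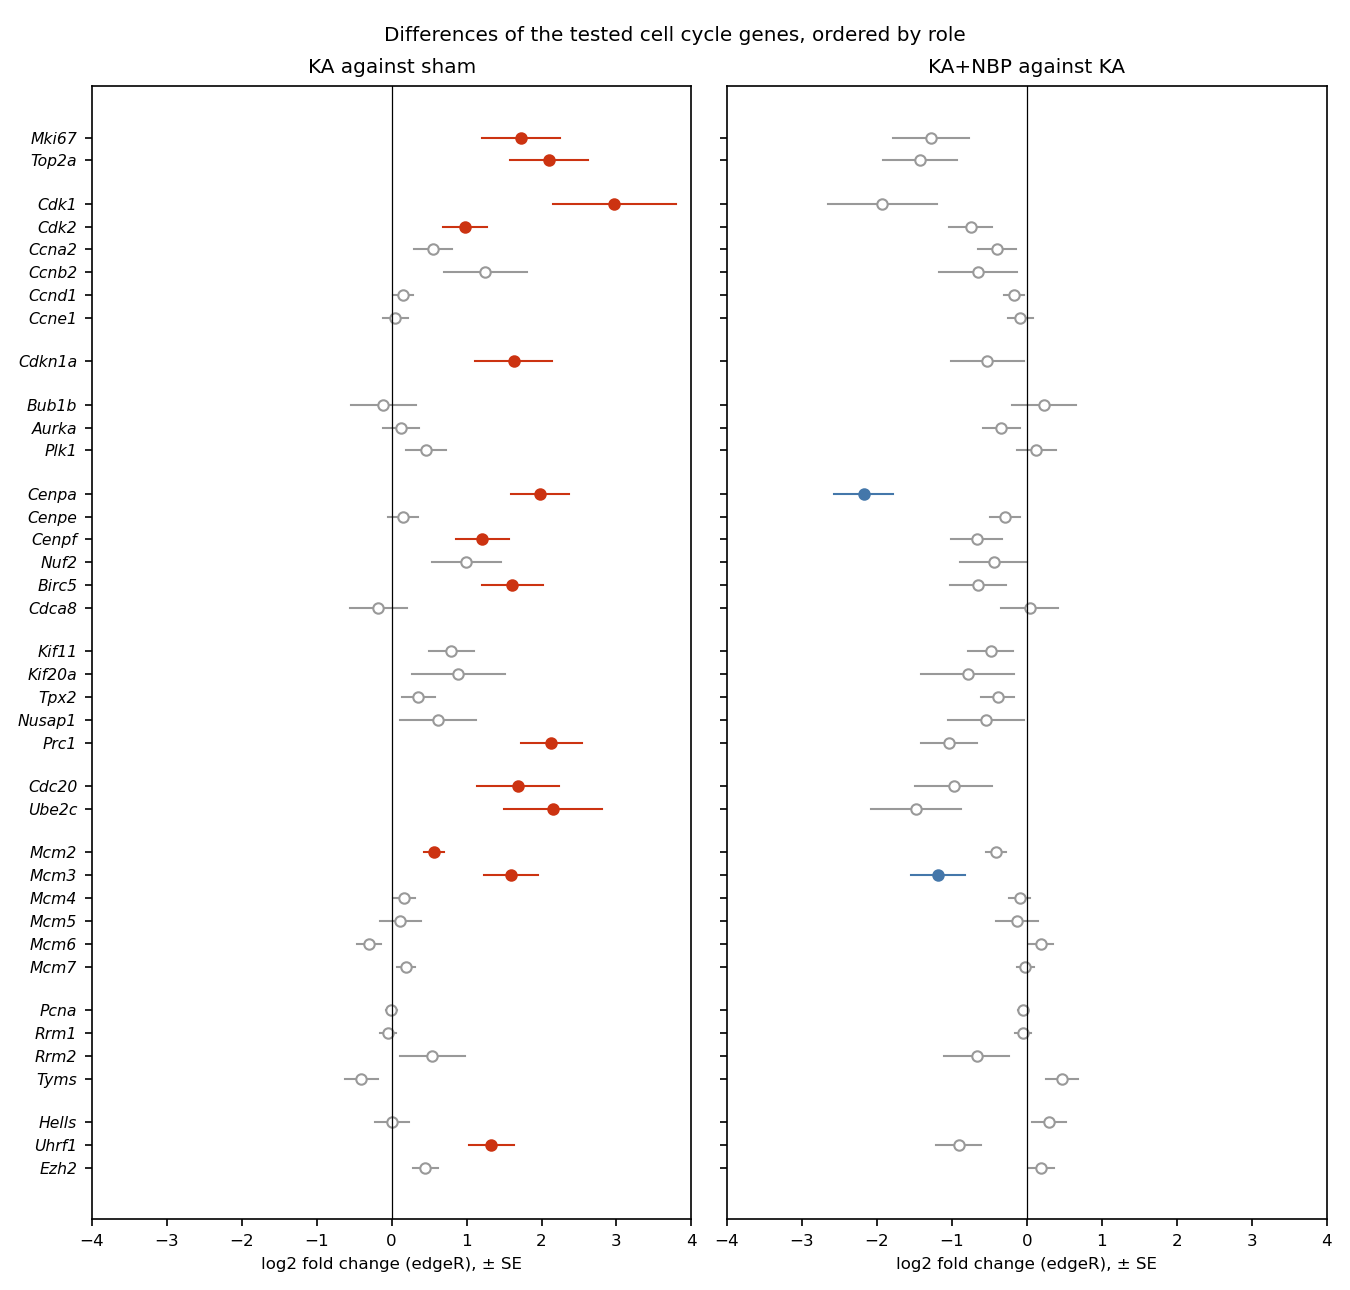
Log2 difference (x axis) of each of the 38 tested genes (y axis), in KA against sham on the left and in KA+NBP against KA on the right. Points are estimates, bars their standard errors and filled points pass the adjusted p threshold, which 14 genes do on the left, all to the right of 0, and 2 on the right, Cenpa and Mcm3, both to the left of 0.

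Both proteins of the chromosomes of dividing cells were higher in KA. Mki67, which coats mitotic chromosomes and is the usual proliferation marker Ki-67, had 15, 37 and 18 counts in the sham libraries, 77, 65 and 97 in those of KA and 26, 58 and 12 with KA+NBP. Top2a, the topoisomerase that untangles sister chromosomes, had 10, 25 and 16 counts in the sham libraries, 69, 76 and 81 in those of KA and 17, 53 and 12 with KA+NBP. Every KA library lay above every sham and KA+NBP library for both genes, and within KA+NBP replicate 2 was the highest. The KA mean of Mki67 was 4.84 ± 1.03 CPM (SD, n = 3) against 1.46 ± 0.738 in sham, a log2 difference of 1.73 (SE 0.52, edgeR adjusted p = 0.0302). For Top2a the means were 4.58 ± 0.467 and 1.06 ± 0.468 CPM and the log2 difference 2.10 (SE 0.52, edgeR adjusted p = 0.0144). Mki67 did not pass without sham replicate 1 or 3 or without any single KA library, with adjusted p up to 0.109, and Top2a did not pass without sham replicate 1 or 3, with adjusted p up to 0.0598.

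Among 7 cyclins and cyclin-dependent kinases, 2 kinases were higher in KA and no cyclin was called. Cdk1, the kinase that starts mitosis, had 2, 5 and 1 counts in the sham libraries, 16, 21 and 30 in those of KA and 1, 14 and 2 with KA+NBP. It was close to the bound of 3 counts in sham and in KA+NBP replicates 1 and 3, and the KA libraries did not overlap with either group. The log2 difference of Cdk1 was 2.97 (SE 0.82, edgeR adjusted p = 0.0222), the largest among the 38 tested genes of the list, from 0.166 ± 0.129 to 1.36 ± 0.457 CPM. Cdk2, a kinase of S-phase entry, had 35, 38 and 46 counts in the sham libraries, 71, 91 and 79 in those of KA and 33, 71 and 36 with KA+NBP. KA+NBP replicate 2 reached the lowest KA library. Its log2 difference was 0.98 (SE 0.29, edgeR adjusted p = 0.0305). The Cdk2 gene lies within the span of Pmel on the opposite strand, and since the strand setting of the counting was not given in the sources used here, reads of the pair may be mixed, although Pmel itself had 4 to 22 counts per library. Cdk1 did not pass without sham replicate 1 or 3 or KA replicate 2 or 3 (adjusted p up to 0.0872), and Cdk2 did not pass without any single sham library or KA replicate 2 or 3 (up to 0.105).

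None of the cyclins tested was called with all libraries, by edgeR or by DESeq2, though Ccnb2 had an unadjusted p under 0.05. Ccnd1, the D-type cyclin that links growth signals to the cycle, was abundant, with 794, 920 and 865 counts in the sham libraries, 907, 905 and 1140 in those of KA and 900, 720 and 914 with KA+NBP. The groups overlapped, and the log2 difference between KA and sham was 0.16 with a 95% interval of -0.14 to 0.45. Ccne1, the E-type cyclin of S-phase entry, differed by 0.05 with an interval of -0.33 to 0.43. Ccna2, the A-type cyclin of S and G2 phase, had 28 to 39 counts across sham and 44 to 66 across KA, with a log2 difference of 0.55 (SE 0.25, edgeR adjusted p = 0.121). For Ccnb2, a mitotic cyclin, the 3 KA libraries had 12, 18 and 17 counts and the sham libraries 3, 8 and 8, and the difference of 1.25 (SE 0.55) had an adjusted p of 0.107 by the same test, which was 0.0372 with the 2 groups alone and 0.0307 without KA+NBP replicate 2. The ranges of Ccna2 and Ccnb2 did not overlap between KA and sham. The Ccna2 gene shares 863 bases with Exosc9 on the same strand, which had 420 to 437 counts across sham and 425 to 496 across KA.

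Of 7 genes of the kinetochore, the centromere and the chromosomal passenger complex, 3 were higher in KA. Cenpa encodes the histone H3 variant that marks centromeres and lies at chr5:30824214-30835149 on GRCm39. It had 18, 24 and 21 counts in the sham libraries, 73, 58 and 125 in those of KA and 10, 27 and 18 with KA+NBP, so that all KA libraries lay above all others and KA+NBP overlapped with sham. Its means were 1.31 ± 0.185, 5.19 ± 2.21 and 1.14 ± 0.508 CPM in the 3 groups (SD, n = 3), and the log2 difference of KA from sham was 1.98 (SE 0.39, edgeR adjusted p = 0.00591). Cenpf, an outer kinetochore protein of G2 and mitosis, had 12, 12 and 19 counts in the sham libraries against 40, 26 and 37 in KA, with 17, 31 and 15 under KA+NBP. Birc5, known as survivin, belongs to the passenger complex and had 11.1, 8 and 5 counts in the sham libraries, 18, 29 and 29 in those of KA and 20, 17 and 10 with KA+NBP. KA lay above sham without overlap in both and overlapped with KA+NBP. The log2 difference was 1.21 (SE 0.35, edgeR adjusted p = 0.0280) for Cenpf and 1.61 (SE 0.41, adjusted p = 0.0163) for Birc5. Cenpf did not pass without sham replicate 1 or 2 or KA replicate 1 or 3 (adjusted p up to 0.101), and Birc5 not without sham replicate 2 or 3 or KA replicate 2 or 3 (up to 0.0677).

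The other tested genes of the kinetochore and passenger complex were not called with all libraries. Nuf2, a partner of Ndc80 in the complex that holds microtubules, had 32, 58 and 17 counts in the sham libraries against 79, 64 and 77 in KA, without overlap. Its log2 difference was 1.00 (SE 0.46, edgeR adjusted p = 0.123), and the adjusted p was 0.0482 with the 2 groups alone and 0.0352 without KA+NBP replicate 2. Cenpe, a kinetochore motor, differed by 0.15 (95% interval -0.30 to 0.60) and Cdca8, known as borealin, by -0.18 (-1.04 to 0.67), and both overlapped between the groups.

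In the spindle group of 5 genes, Prc1 was the only gene called with all libraries. Prc1 bundles the microtubules of the central spindle before cytokinesis and lies at chr7:79944024-79966007 on GRCm39. It had 8, 11 and 6 counts in the sham libraries, 42, 29 and 43 in those of KA and 13, 29 and 12 with KA+NBP. Every KA library exceeded every sham library, as did every KA+NBP library, and KA+NBP replicate 2 equalled the lowest KA library. The log2 difference of KA from sham was 2.13 (SE 0.41, edgeR adjusted p = 0.00554), with adjusted p from 2.85e-04 to 0.0300 over the alternatives. Prc1 overlaps with Rccd1 on the opposite strand, which had 120 to 155 counts across sham and 102 to 127 across KA and was not called (log2 difference -0.31, adjusted p = 0.146). Of the spindle motors, Kif11, which pushes the poles apart, differed by 0.80 (SE 0.30, edgeR adjusted p = 0.0709, but 0.0360 without KA replicate 2 and 0.0404 without KA+NBP replicate 2) and Kif20a, a motor of cytokinesis, by 0.89 (SE 0.62, adjusted p = 0.297). The spindle assembly factors Tpx2 and Nusap1 differed by 0.36 (SE 0.22) and 0.62 (SE 0.51) and were not called. KA replicate 2 was the lowest KA library for both motors and overlapped with sham.

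Both genes tied to the anaphase-promoting complex, the ubiquitin ligase that ends mitosis, were higher in KA. Cdc20, its activator, had 9, 6 and 5 counts in the sham libraries, 27, 21 and 19 in those of KA and 10, 20 and 3 with KA+NBP. Ube2c, its ubiquitin-conjugating enzyme, had 1, 4 and 3 counts in the sham libraries, 13, 13 and 12 in those of KA and 1, 9 and 3 with KA+NBP. KA and sham did not overlap for either gene, and the sham counts of Ube2c are at the bound of detection. Log2 differences were 1.68 (SE 0.55, edgeR adjusted p = 0.0411) and 2.16 (SE 0.65, adjusted p = 0.0315). These calls depended on single libraries more than the others: leaving out any sham or KA library, and for Cdc20 also KA+NBP replicate 1, gave an adjusted p over the threshold, up to 0.134 for Cdc20 and 0.114 for Ube2c. Cdc20 overlaps by 53 bases with Elovl1 on the opposite strand, so reads may be mixed. Elovl1 had 293 to 356 counts across sham and 411 to 474 across KA and was higher in KA (log2 difference 0.39, edgeR adjusted p = 0.0270). Aurka, Ccnd1, Kif20a, Mcm7 and Nusap1 also overlap with other genes.

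In the group of 7 mitotic kinases, which leaves out Cdk1 above and Pbk below, none was called by edgeR or DESeq2. Of these 7, 3 passed the filter, and 0 had an unadjusted p under 0.05 by edgeR. Aurka, which matures the spindle poles, had 17 to 20 counts across sham and 21 to 22 across KA, a log2 difference of 0.13 with a 95% interval of -0.42 to 0.67. Plk1, which acts at entry into mitosis and at the kinetochore, had 16, 17 and 25 counts in the sham libraries against 27, 26 and 29 in KA, with a log2 difference of 0.46 (SE 0.27, edgeR adjusted p = 0.220). Bub1b, a kinase-like protein of the spindle checkpoint, differed by -0.11 with a 95% interval of -1.09 to 0.86. The intervals of all 3 include differences as large as that of Mcm2, which was called.

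The 7 genes under the filter were counted and not tested. Ndc80 had 1, 0 and 1 counts in the sham libraries, 4, 10 and 8 in those of KA and 5, 3 and 2 with KA+NBP, and Melk, a kinase of proliferating progenitors, had 0, 2 and 2 in the sham libraries, 6, 5 and 10 in those of KA and 4, 8 and 1 with KA+NBP. Aurkb, the passenger complex kinase, had 2, 6 and 4 in the sham libraries, 7, 9 and 16 in those of KA and 0, 3 and 3 with KA+NBP. KA lay above sham in all 3, and also in Ttk, a spindle checkpoint kinase with 6 to 7 counts across sham and 10 to 11 across KA. Summed over 3 libraries and scaled to depth, the ratio of KA to sham was 10.7 for Ndc80 (95% counting interval 2.63 to 93.8), from 2 and 22 counts, and 5.10 for Melk (1.72 to 20.4). It was 2.59 for Aurkb (1.3 to 5.52) and 1.55 for Ttk (0.862 to 2.87). Ccnb1, the mitotic cyclin partner of Cdk1, had a ratio of 2.24 (1.13 to 4.68), Bub1, a spindle checkpoint kinase, 2.19 (0.904 to 5.81) and Esco2, which ties sister chromatids together, 3.11 (1.09 to 10.9), and in all 3 the libraries of the groups overlapped. In a fit with no filter Ndc80 passed (log2 difference 3.20, SE 0.80, edgeR adjusted p = 0.0161) and the other 6 did not, with adjusted p from 0.0825 to 0.339.

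**Figure D2:**
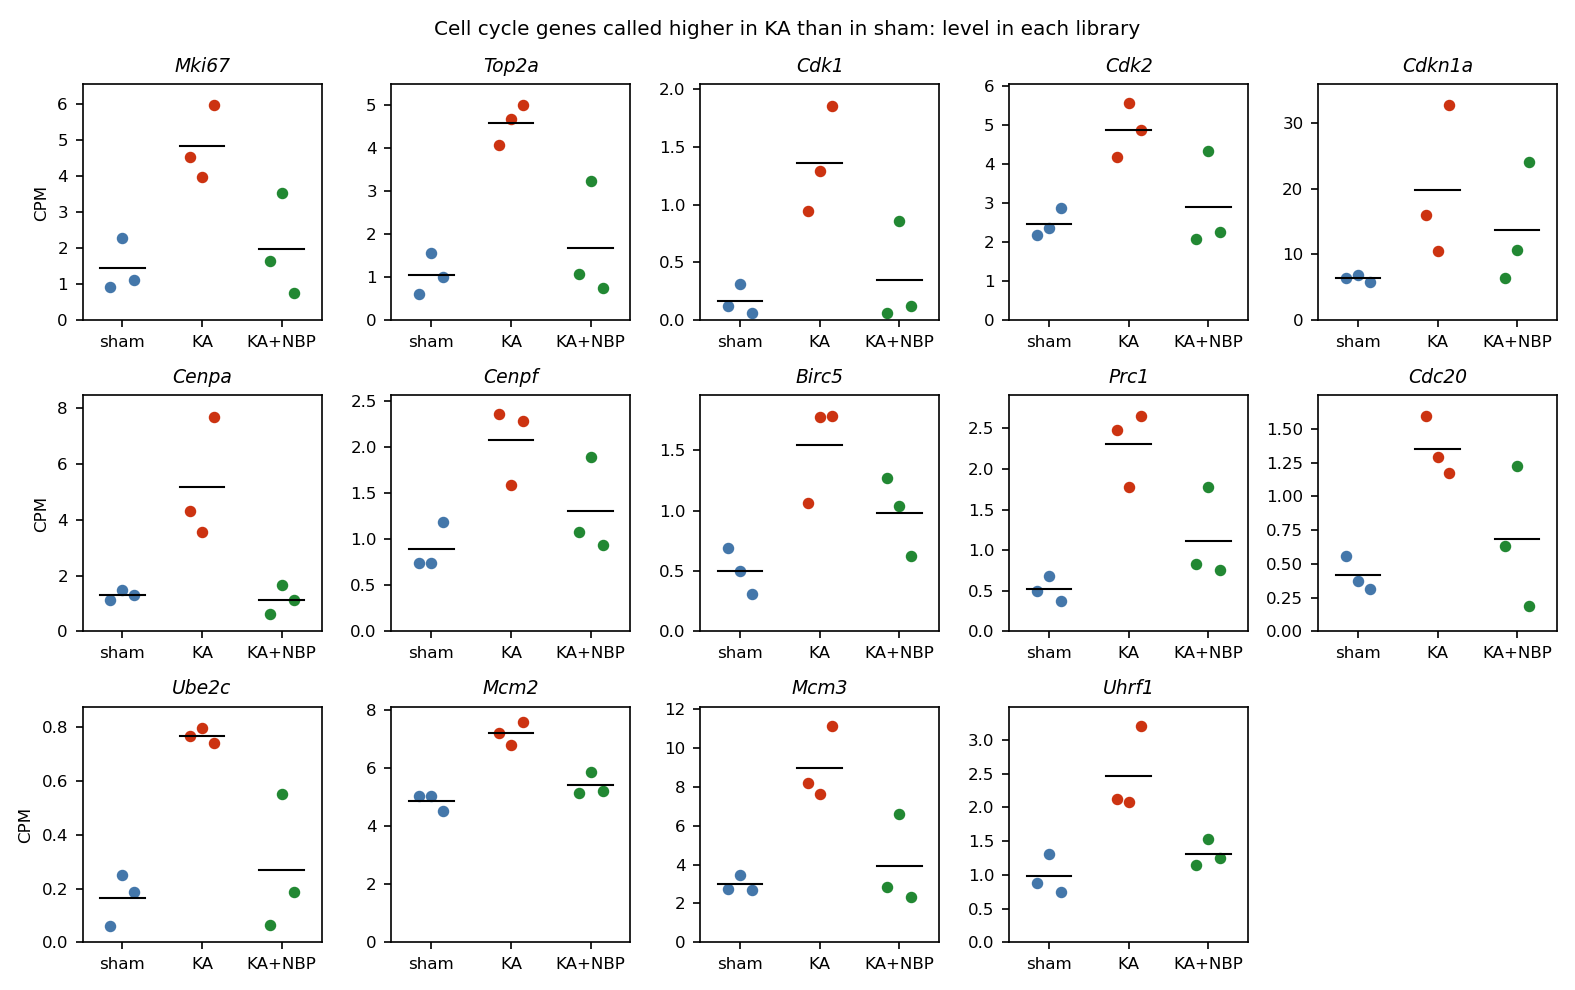
CPM (y axis, from 0) in each of the 9 libraries for the 14 genes that were higher in KA than in sham, with points for libraries and a bar for the mean of each group. In all 14 panels, genes chosen for being higher in KA, the KA points lie above the sham points, and in most panels KA+NBP replicate 2 is the highest KA+NBP point.

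The 6 MCM proteins form a ring that unwinds DNA, and 2 of their genes were higher in KA. Mcm3, at chr1:20873188-20890536 on GRCm39, had 44, 56 and 43 counts in the sham libraries, 139, 124 and 180 in those of KA and 45, 108 and 37 with KA+NBP. Its KA libraries lay above all others, and the log2 difference from sham was 1.59 (SE 0.36, edgeR adjusted p = 0.0109), from 2.97 ± 0.439 to 8.97 ± 1.87 CPM. Mcm2 had 81, 81 and 72 counts in the sham libraries, 122, 111 and 123 in those of KA and 81, 96 and 83 with KA+NBP. Its KA libraries lay above all others without overlap, and a log2 difference of 0.56 (SE 0.13, edgeR adjusted p = 0.0125) passed, though not without sham replicate 3 (adjusted p = 0.0552).

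The other 4 helicase subunits were not called. The log2 difference of KA from sham was 0.16 for Mcm4 (95% interval -0.15 to 0.48), whose KA libraries all lay above sham, 0.11 for Mcm5 (-0.51 to 0.74) and 0.19 for Mcm7 (-0.07 to 0.45). Mcm6 had 271, 265 and 285 counts in the sham libraries against 260, 171 and 256 in KA, a log2 difference of -0.30 (-0.65 to 0.05, edgeR adjusted p = 0.168), and all KA libraries lay below all sham libraries. The upper bounds for Mcm4, Mcm6 and Mcm7 are under the estimate for Mcm2, and those of all 4 are under the estimate for Mcm3. Mcm4 lies within the span of Prkdc, which was itself lower in KA (log2 difference -0.53), so that mixed reads could alter its value. The summed level of the 6 genes was 51.8 to 53.1 CPM over the sham libraries, 54.4 to 65.7 over KA and 50.5 to 61.6 over KA+NBP.

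**Figure D3:**
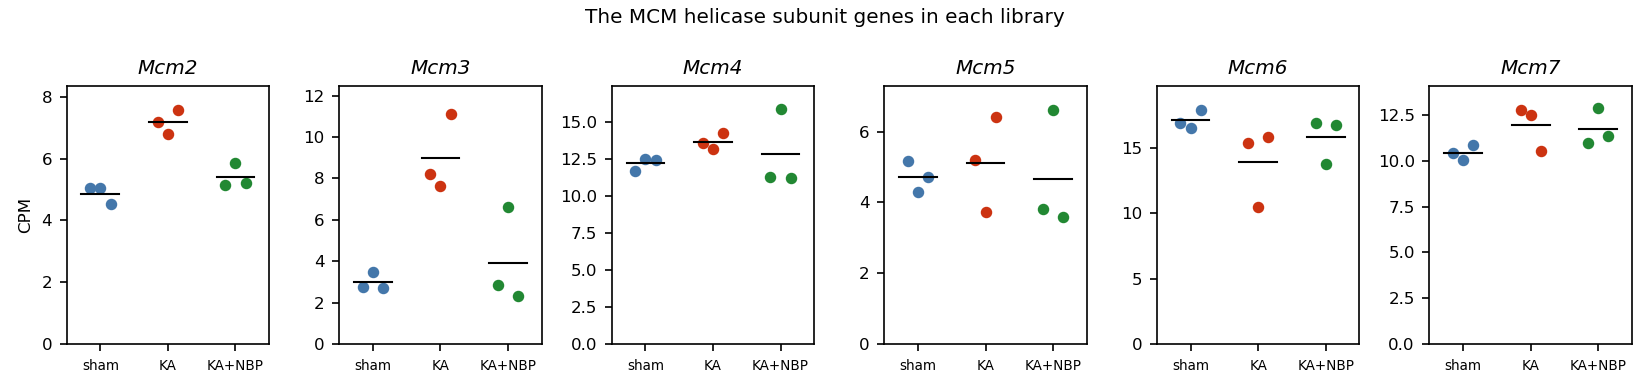
CPM (y axis, from 0, with its own scale per gene) of the 6 MCM helicase genes in each library, with a bar for the group mean. KA points stand above sham for Mcm2, Mcm3 and, narrowly, Mcm4 and below sham for Mcm6, and KA+NBP replicate 2 is the highest KA+NBP point for Mcm2, Mcm3, Mcm4, Mcm5 and Mcm7.

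None of the 4 genes of the replication clamp and nucleotide supply was called by edgeR or DESeq2, and 0 had an unadjusted p under 0.05 by edgeR. Pcna, the ring that holds polymerases on DNA, was the most abundant gene per length and had 549, 531 and 561 counts in the sham libraries, 585, 582 and 518 in those of KA and 519, 565 and 495 with KA+NBP. The groups overlapped throughout, with means of 34.2 ± 1.10, 34.1 ± 1.93 and 32.9 ± 1.74 CPM, and the 95% interval of the log2 difference of KA from sham was -0.17 to 0.16. Rrm1, the large subunit of ribonucleotide reductase, had an interval of -0.29 to 0.18. Rrm2, its small subunit, had lower counts and a wider interval of -0.43 to 1.52, and Tyms, thymidylate synthase, one of -0.90 to 0.09. At this depth differences of the size seen for Mcm3 lie outside the intervals of all 4 genes. The upper bounds for Pcna, Rrm1 and Tyms are also under the estimate of 0.56 for Mcm2. The interval of Rrm2 includes that value and the 1.33 of Uhrf1, which were both called, so a rise of that size in Rrm2 is not excluded.

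Of the 4 chromatin factors of S phase, Uhrf1 was higher in KA. Uhrf1 brings the maintenance DNA methyltransferase to replicated DNA and had 14, 21 and 12 counts in the sham libraries, 36, 34 and 52 in those of KA and 18, 25 and 20 with KA+NBP. KA lay above both other groups, and the log2 difference from sham was 1.33 (SE 0.30, edgeR adjusted p = 0.0109), which did not pass without sham replicate 3 (adjusted p = 0.0504). Hells, a chromatin remodeller of the same pathway, differed by 0.01 (95% interval -0.50 to 0.51). Ezh2, the histone H3 lysine 27 methyltransferase, had 56, 63 and 58 counts in the sham libraries, 88, 78 and 83 in those of KA and 73, 108 and 96 with KA+NBP. Its KA and KA+NBP libraries all lay above sham, and neither difference passed with all libraries: 0.45 for KA (SE 0.17, edgeR adjusted p = 0.0689) and 0.64 for KA+NBP (SE 0.17, adjusted p = 1.0). The KA difference of Ezh2 passed with the 2 groups alone (adjusted p = 0.0364), without KA+NBP replicate 1 (0.0464) and without KA+NBP replicate 2 (0.0380).

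Cdkn1a, the inhibitor, was higher in KA as well, with a wide spread. It had 103, 111 and 93 counts in the sham libraries, 271, 171 and 531 in those of KA and 102, 174 and 382 with KA+NBP. KA replicate 3 and KA+NBP replicate 3 were the highest of their groups, KA did not overlap with sham, and KA+NBP spanned the range from sham to KA. The means were 6.39 ± 0.533, 19.7 ± 11.6 and 13.7 ± 9.14 CPM. The log2 difference of KA from sham was 1.63 (SE 0.51, edgeR adjusted p = 0.0375), and it did not pass without any single sham library or without KA replicate 1 or 3 (adjusted p up to 0.141). Among the genes higher in KA, it was the only one with its highest KA+NBP value outside replicate 2, apart from Birc5, which was highest in KA+NBP replicate 1.

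Other targets of p53 were read beside Cdkn1a. Of 23 listed genes 22 were tested, and 5 were higher and 1 was lower in KA, against the 19.0% and 14.6% of all genes, with a median log2 difference of 0.25. Fas, a death receptor, had 25, 19 and 25 counts in the sham libraries, 80, 65 and 91 in those of KA and 23, 46 and 28 with KA+NBP, a log2 difference of KA from sham of 1.73 (SE 0.28). Gadd45a, a stress protein, was higher by 1.03 (SE 0.29) and Aen, a nuclease, by 0.37 (SE 0.09), while Rrm2b, a ribonucleotide reductase subunit, was lower by -0.31 (SE 0.06). Ccng1 and Bax were the other 2 higher genes. Gadd45a did not pass without any single sham or KA library (adjusted p up to 0.0846), nor Aen without sham replicate 2 or 3 (up to 0.0722). In KA+NBP replicate 3, where Cdkn1a stood at 24.0 CPM, Fas was at 1.76 and Gadd45a at 2.51 CPM, each under its value in replicate 2. Ccng1, Bax and Aen had their highest KA+NBP values in replicate 3, at 79.6, 23.4 and 26.1 CPM, as did Rrm2b at 48.4 CPM. The count of 5 fell to 3, 1 and 1 when sham replicate 1, 2 or 3 was left out, and was 4, 3 and 2 when KA replicate 1, 2 or 3 was, and 8 without KA+NBP replicate 2.

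**Figure D4:**
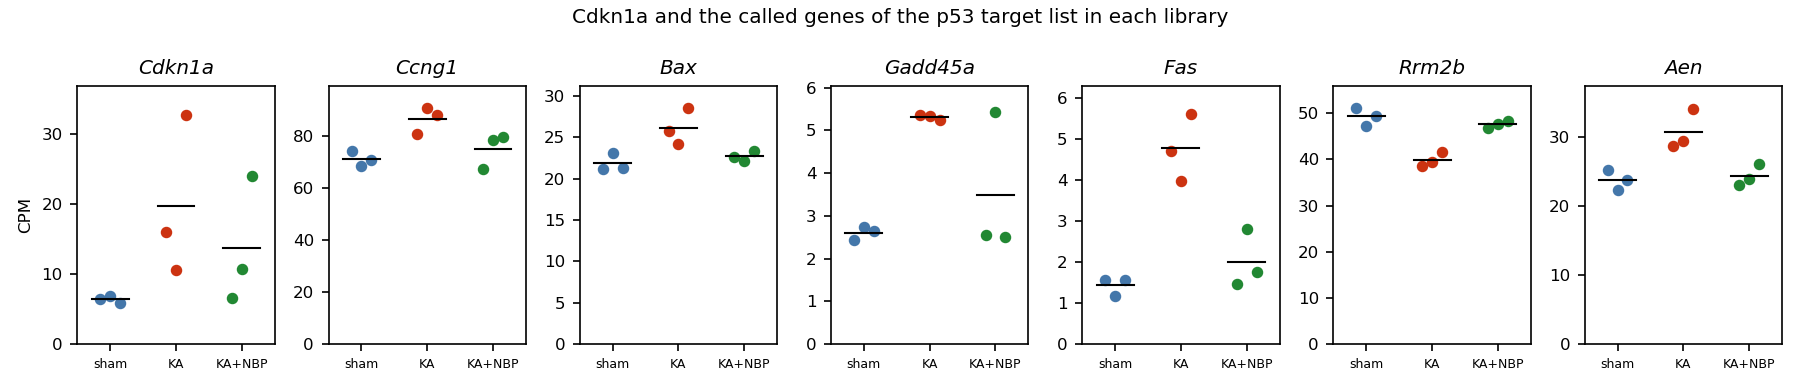
CPM (y axis, from 0, with its own scale per gene) of Cdkn1a and 6 other p53 targets in each library, with a bar for the group mean. Cdkn1a reaches 24.0 CPM in KA+NBP replicate 3, where Fas is at 1.76 and Gadd45a at 2.51 CPM. Ccng1, Bax, Aen and Rrm2b have their highest KA+NBP points in that replicate.

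KA+NBP was compared with KA to ask what NBP changed, and both comparisons share the KA libraries. By edgeR's quasi-likelihood test 2 of the 45 genes, 4.44%, or 5.26% of the 38 tested, were lower in KA+NBP and 0 were higher. Of all genes tested, 12.7% were lower and 10.0% higher. The median log2 difference was -0.43 over the 38 tested genes and -0.01 over all genes. At an unadjusted p under 0.05 the test named 10 of the 38, all lower, which is 26.3% against 38.1% of all genes in either direction. DESeq2 called 3 lower, with Top2a as the third. Cenpa, with the counts given above, was lower by a log2 difference of -2.18 (SE 0.39, edgeR adjusted p = 0.00736) and passed in all 14 alternatives (-2.54 without KA+NBP replicate 2), with adjusted p from 2.71e-05 to 0.0402. Mcm3 was lower by -1.19 (SE 0.36, edgeR adjusted p = 0.0414) and passed in 5 of 14 (-1.79 without KA+NBP replicate 2), with adjusted p from 2.17e-04 to 0.134. When any single library other than KA+NBP replicate 2 was left out, Mcm3 did not pass and Cenpa was the only gene of the 45 that did.

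This comparison depended on KA+NBP replicate 2. Of the 14 genes that were higher in KA than in sham, replicate 2 exceeded the highest sham library in 14, and replicates 1 and 3 in 4 and 3. Over all 2802 genes higher in KA the shares were 84.5% for replicate 2, and 21.3% and 26.8% for replicates 1 and 3. Without replicate 2, 39 of the 45 genes were tested and 15 of these were lower in KA+NBP than in KA, against 23.6% of all genes tested. None was higher, against 19.2%, and the median over the 39 was -0.60. The 15 lower genes were Ccnb2, Cdc20, Cdk1, Cdk2, Cenpa, Cenpf, Mcm2, Mcm3, Mcm4, Mki67, Nusap1, Prc1, Top2a, Ube2c and Uhrf1. The log2 difference was then -3.74 for Cdk1 (SE 0.67, edgeR adjusted p = 0.00153), -2.31 for Top2a (SE 0.34, adjusted p = 5.08e-04) and -2.0 for Mki67 (SE 0.42, adjusted p = 0.00384). With all libraries they were -1.93, -1.43 and -1.28, with adjusted p of 0.0842, 0.0641 and 0.0941 by the same test. Cdkn1a did not pass either way, at -0.53 (SE 0.49, adjusted p = 0.464) with all libraries and -0.37 (adjusted p = 0.600) without replicate 2. KA+NBP replicate 2 also had more of the glial and choroid plexus markers described below, and their part in its values was not tested.

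Against sham, no gene of the 45 was called in KA+NBP by edgeR or DESeq2, and over all genes edgeR called 0 higher and 0 lower, 0% of those tested, and DESeq2 called 1 lower. At an unadjusted p under 0.05 edgeR named Birc5, Prc1 and Ezh2, 3 of the 38 genes and all higher, and 248 of all genes in either direction. Prc1, Mcm2, Mcm7 and Ezh2 had all KA+NBP libraries above all sham libraries, 4 of the 38 genes, beside 3.27% of all genes, and 0 had all below, beside 3.09%. Intervals were wide: the log2 difference was 0.45 for Mki67 (95% interval -0.75 to 1.65), 0.67 for Top2a (-0.53 to 1.88), 1.05 for Cdk1 (-1.10 to 3.19) and 1.10 for Cdkn1a (-0.06 to 2.26). For Cenpa it was -0.20 (-1.14 to 0.74). Without KA+NBP replicate 2 the values were -0.28 for Mki67, -0.21 for Top2a, -0.77 for Cdk1, 1.25 for Cdkn1a and -0.56 for Cenpa, and again no gene was called. The intervals with all libraries include differences as large as several of those called between KA and sham, so equal levels in sham and KA+NBP are not shown.

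Other genes of the same processes were counted from lists outside the 45. Of 48 other mitotic genes 39 were tested, and 11 were higher and 3 lower in KA, with a median log2 difference of 0.54. Over all genes tested, 19.0% were higher and 14.6% lower. Ckap2, a spindle protein, had 7, 10 and 9 counts in the sham libraries, 30, 27 and 32 in those of KA and 11, 10 and 6 with KA+NBP, and its log2 differences were 1.72 (SE 0.31) for KA from sham and -1.66 (SE 0.30, edgeR adjusted p = 0.00783) for KA+NBP from KA. Pbk, a mitotic kinase, was higher in KA by 2.61 (SE 0.54) and Foxm1, a transcription factor of mitotic genes, by 0.97 (SE 0.20), and Wee1, the kinase that restrains Cdk1, was lower by -0.66 (SE 0.12). The count of 11 was 3, 5 and 3 when sham replicate 1, 2 or 3 was left out, 5, 6 and 3 when KA replicate 1, 2 or 3 was, and 15 without KA+NBP replicate 2.

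Of 37 other replication genes 35 were tested, with 2 higher, 1 lower and a median log2 difference of 0.02, against 19.0% higher and 14.6% lower over all genes. The count of 2 was 1 by DESeq2 and without any single sham or KA library, 5 without KA+NBP replicate 2 and 3 without KA+NBP replicate 3. Rpa1, which binds single-stranded DNA, was higher by 0.55 (SE 0.06) and the licensing factor Cdc6 by 1.06 (SE 0.32), and Dut, which removes dUTP, was lower by -0.43 (SE 0.12). Cdc6 did not pass by DESeq2 (adjusted p = 0.0922) or without any single sham or KA library (edgeR adjusted p up to 0.123), and Dut did not pass without any single sham library or KA replicate 2 or 3 (up to 0.0817). Cdt1, another licensing factor, differed by 0.90 (SE 0.33, edgeR adjusted p = 0.0605) and was not called. Of 25 other regulators of G1 phase 23 were tested, with 4 higher, 3 lower and a median of 0.23, against the same 19.0% and 14.6% of all genes. Cdkn2c, an inhibitor of the D-cyclin kinases, was higher by 1.64 (SE 0.27), E2f8, a repressor of the E2F family, by 2.34 (SE 0.43) and Ccnd3, a D-type cyclin, by 0.73 (SE 0.09), and Ccnd2 was lower by -0.36 (SE 0.08). In KA+NBP against KA, Cdkn2c, E2f8 and Ccnd3 were lower, by -1.25, -1.85 and -0.77, and Ccnd2 was higher, by 0.34. Without KA+NBP replicate 2 these were -1.58, -2.01, -0.75 and 0.41, and that of Ckap2 was -1.73.

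Markers of microglia, astrocytes and oligodendrocyte precursors were mostly higher in KA, and those of neuroblasts were not. The shares over all genes tested were 19.0% higher and 14.6% lower. Of 12 microglial markers 11 were higher in KA and their summed level was 400 to 470 CPM over the sham libraries, 1489 to 1536 over KA and 352 to 750 over KA+NBP. For astrocytes 7 of 8 were higher, at 2123 to 2361, 7387 to 8834 and 2106 to 4962 CPM. The astrocyte markers differed unequally, from 0.28 for Gja1, which was not called, to 3.82 for Gfap, with a median log2 difference of 0.90. Their sum is therefore not a measure of cell number. For oligodendrocyte precursors 7 of 8 were higher, at 206 to 239, 329 to 391 and 215 to 262 CPM, and Pdgfra (log2 difference 0.13) was not called. Of 11 markers of neuroblasts and intermediate progenitors 0 were higher and Dcx was lower (log2 difference -0.71), with sums of 539 to 607, 484 to 524 and 523 to 581 CPM. Neurod1 was higher, by 0.34, in 4 alternatives. These were the replicate block (edgeR adjusted p = 0.0459), the 2 groups alone (0.0192) and the fits without KA+NBP replicate 2 (0.0268) or 3 (0.0319). DESeq2 called 2 markers lower, and 3 were lower without KA+NBP replicate 2. Endothelial markers were higher in 5 of 8, with 1 to 8 when single libraries were left out, and pan-neuronal markers lower in 7 of 10 and higher in 1. Of 12 leukocyte markers 4 were tested and edgeR called 0, with DESeq2 calling 1 higher and edgeR 4 without KA+NBP replicate 2, and their sums were 1.18 to 3.14, 4.62 to 8.55 and 0.439 to 15 CPM. Choroid plexus and ependymal markers were higher in 0 of 8 and lower in 1, with 1 higher under the replicate block (Foxj1, 1.09, adjusted p = 0.0304) and 2 with the 2 groups alone and without KA+NBP replicate 2. No marker was at 0 in all libraries. The part of these cell types in the levels of the cell cycle genes was not tested.

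The 23 genes of mitosis among the 45, which are the chromosome, kinase, kinetochore, spindle and anaphase-promoting groups, had a summed level of 22.5, 26.4 and 20.4 CPM in the sham libraries, 45.3, 42.0 and 51.7 in those of KA and 26.9, 36.5 and 20.8 with KA+NBP. Relative to the sham mean this was 1.96, 1.82 and 2.24 for the KA libraries and 1.16, 1.58 and 0.90 for those with KA+NBP, so that all KA libraries lay above all others and KA+NBP replicate 2 was next. The sum of the 48 other mitotic genes did not separate the groups, at 0.97 to 1.04 times the sham mean over sham, 0.97 to 1.13 over KA and 0.97 to 1.00 over KA+NBP. That sum was 831 to 891 CPM over sham, so it weighs abundant genes most and says little about low ones such as Ckap2. Taken gene by gene, 11 of the 39 tested were higher in KA and 3 lower, with a median log2 difference of 0.54. The 4 genes of clamp and nucleotide supply summed to 59.7 to 60.7 CPM over the sham libraries, 57.0 to 60.2 over KA and 54.9 to 61.9 over KA+NBP, and these ranges overlapped. Mean sham levels were 34.2 CPM for Pcna and 20.4 for Rrm1, against 1.29 for Rrm2 and 4.21 for Tyms. This sum therefore says little about Rrm2 and Tyms.

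**Figure D5:**
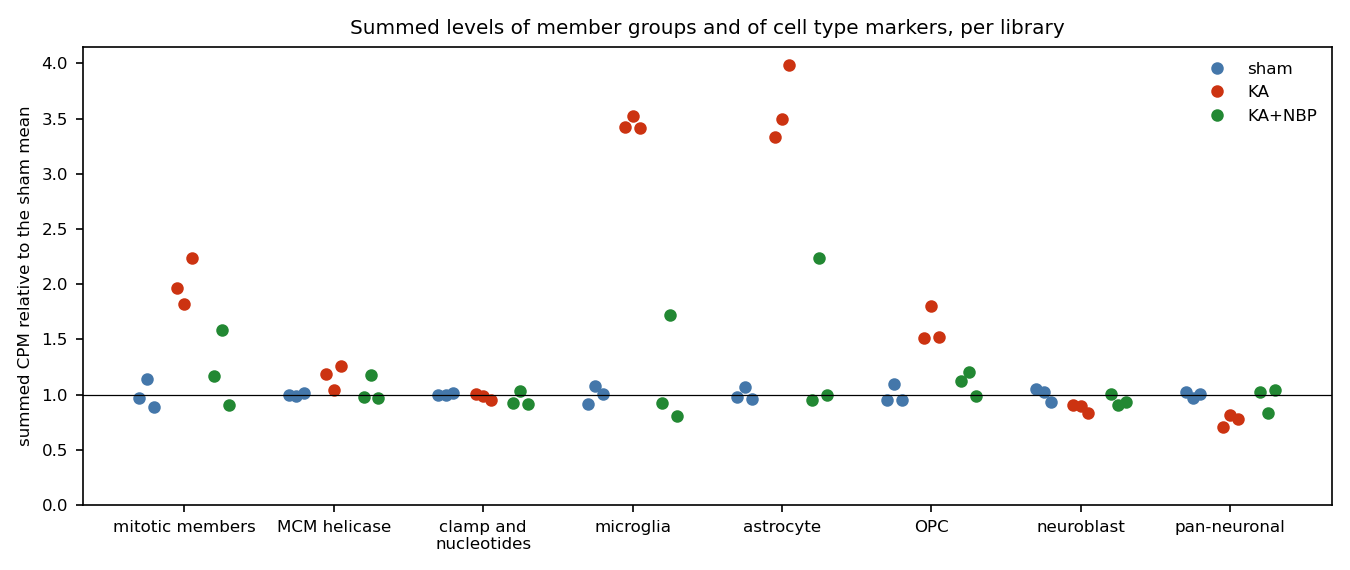
Summed CPM of gene groups in each library relative to the sham mean (y axis), for 3 groups of the cell cycle genes and 5 lists of cell type markers (OPC, oligodendrocyte precursor), with a point per library. The mitotic genes reach 1.82 to 2.24 in KA. The clamp and nucleotide sum, mostly Pcna and Rrm1, stays near the sham level in all libraries. The microglial and astrocyte sums are highest in KA with KA+NBP replicate 2 next. Each sum weighs abundant genes most.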

How the data were processed

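RNA of 9 hippocampal libraries had been extracted with TRIzol, per the labels' protocols. The submitters' processing notes name build GRCm39 and the tools Bowtie2, RSEM (1.3.1) and DESeq2 (1.4.5), with no role stated. Estimated counts, deposited by the authors for 18474 genes, carried fractions in 5.65 to 6.61% of values per library and were rounded before testing. FPKM as deposited by the authors served only to order genes by level per length, and the deposited TPM values entered no step.

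Counts were tested in edgeR 4.0.16 (R 4.3.3): filterByExpr with a minimum count of 10, TMM, 1 mean per group over all 9 libraries, the quasi-likelihood F test and Benjamini-Hochberg adjustment over 14752 genes at 0.05. CPM is the count per 1000000 of the TMM-scaled library, and 95% intervals use the t distribution of the fit. Alternatives were RLE size factors, no filter, the 2 groups alone, a replicate block, DESeq2 1.42.0 and each library left out. The 45 genes and all other lists were chosen with earlier results of these data known. Counts per library were given for every gene called, for Mki67, Top2a, Cdk1, Ccnd1, Pcna and Cdkn1a, and for low genes, and from each other list outside the cell type markers the 4 genes with the smallest p in KA against sham were named. Values of the remaining genes were added so that all 45 are accounted for. Marker lists are given by their counts and sums, and the astrocyte list also by its median. Dcx, Neurod1, Foxj1, Gfap, Gja1 and Pdgfra were chosen after their values were seen, as were Ccng1 and Bax.

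The labels do not say that replicate numbers pair libraries. Deviations from group means of same-numbered libraries correlated at 0.126 to 0.332 between sham and KA+NBP, over 0.1 in each of the 3 pairs. Libraries of these 2 groups with different numbers correlated at -0.310 to 0.192, so the ranges overlapped. Same-numbered libraries correlated at -0.00611 to 0.0299 between sham and KA and at -0.0450 to 0.0447 between KA and KA+NBP. Any pairing of sham with KA+NBP would rest on the values alone, and the block changed no call among the 45 genes in that comparison.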

Additional observations from a re-analysis of the deposited data

How the results depend on the processing

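Depth and replicate number limit these results, since 7 of the 45 genes were too low to test and 4 others had no sham library at the filter level. The count of genes higher in KA than in sham was 14 with RLE size factors, with a replicate block and with DESeq2, 15 with no filter and 17 with the 2 groups alone. Leaving out single libraries gave 4 to 18 genes, with 4 without sham replicate 3 and 18 without KA+NBP replicate 2. Over all genes these fits gave 1629 to 3677 higher and 1074 to 3023 lower genes, lowest without sham replicates 1 and 3 and highest without KA+NBP replicate 2. In KA+NBP against KA, the 2 groups alone gave 1 lower gene among the 45, and 465 higher and 600 lower among all. Leaving out single libraries gave 1 to 15 lower genes among the 45, and 523 to 2849 higher and 772 to 3506 lower among all, each highest without KA+NBP replicate 2 and lowest, for all genes, without KA+NBP replicate 1. In KA+NBP against sham, 1 gene was higher without KA+NBP replicate 1 and 1 was lower by DESeq2, and every other alternative gave 0 in both directions. The fits with fewer libraries test with fewer degrees of freedom, and other causes were not tested. The replicate block gave 14 higher genes in KA against sham and 3 lower in KA+NBP against KA, where Top2a was added (log2 difference -1.61, edgeR adjusted p = 0.0318), and changed no other call among the 45. Among other genes named, Cdc6 did not pass with the block (adjusted p = 0.0521). Of the values of single genes over all alternatives, 2111 kept their side of the threshold, 87 lost and 47 gained the threshold, 14 uncalled values moved by more than the spread between replicates, and 0 called values changed sign.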
